A study of Mus musculus with 15 samples.

Results

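The genes described here are Krt222, Krt25, Krt10 and Krt12, 4 type I keratin genes that lie within 189.5 kb of one another on mouse chromosome 11, 4 of the 26628 genes in the deposited table. They were taken from the table by symbol, because earlier looks at these data had shown line or region differences among them, and another 47 keratin genes of the table served for comparison. RNA was sequenced from the dissected cerebellum (Ce) and striatum (St) of male Hsd:ICR mice, about 6 weeks old when given a running wheel and sampled after 7 days, from a line selected over generations for high voluntary wheel running (Hi) and from a control line that was not (Co). The samples are 4 CeCo, 4 CeHi, 4 StCo and 3 StHi, and a StHi sample that the authors removed was not analysed here. All mice of both lines had wheels. Each line is a single line of a replicated selection experiment, so selection and the descent of that line cannot be told apart. The direction of every line difference rests on the line names in the deposited labels alone, which could not be checked from the values. Were these names exchanged, every Co and Hi given here would trade places, while sizes and overlaps would stand.

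Keratins are the intermediate filament proteins of epithelial cells. A type I keratin pairs with a type II keratin, and the pairs assemble into filaments that give skin, hair and cornea their mechanical strength and that are anchored at desmosomes, the junctions between epithelial cells. In mouse most type I genes sit side by side on chromosome 11, and the type II genes sit on chromosome 15 together with the type I gene Krt18. Neurons and glia build their filaments mainly from other members of the superfamily, such as neurofilament proteins, vimentin and Gfap.

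All 4 genes lie on the minus strand, in the GRCm38 coordinates of the GENCODE M21 annotation. Krt222 spans 99232761 to 99244085, Krt25 spans 99315516 to 99322951, Krt10 spans 99385254 to 99389364, and Krt12 spans 99415666 to 99422259. The keratin genes Krt24, Krt26, Krt27 and Krt28 lie between them, Smarce1 lies next to Krt222, and Krt20 lies next to Krt12. The promoters of Krt25, Krt10 and Krt12 are shown here because Krt25 and Krt12 had the largest line differences of the group whereas Krt10, placed between them, had little. Each run is the 250 bases before the start of the gene as GENCODE places it, read 5′ to 3′ on the minus strand of GRCm38.p6. A promoter sequence was available for 3 of the 4 genes. RefSeq places the starts of Krt10 and Krt12 further upstream, at 99397449 and 99422593, so the runs of Krt10 and Krt12 lie within their RefSeq spans. Capitals mark TATAAA, the core of a TATA box, and the longest run of bases that all 3 sequences share, CTCCACCC.
Krt25, chr11:99322952-99323201: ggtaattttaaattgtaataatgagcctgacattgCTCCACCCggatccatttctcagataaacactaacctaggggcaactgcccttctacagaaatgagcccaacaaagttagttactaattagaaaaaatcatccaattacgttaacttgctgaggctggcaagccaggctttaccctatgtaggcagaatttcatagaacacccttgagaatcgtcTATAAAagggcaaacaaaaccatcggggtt
Krt10, chr11:99389365-99389614: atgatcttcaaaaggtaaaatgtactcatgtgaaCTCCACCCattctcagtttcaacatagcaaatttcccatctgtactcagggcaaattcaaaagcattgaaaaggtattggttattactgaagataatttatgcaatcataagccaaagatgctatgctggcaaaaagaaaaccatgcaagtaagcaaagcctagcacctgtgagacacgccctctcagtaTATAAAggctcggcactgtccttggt
Krt12, chr11:99422260-99422509: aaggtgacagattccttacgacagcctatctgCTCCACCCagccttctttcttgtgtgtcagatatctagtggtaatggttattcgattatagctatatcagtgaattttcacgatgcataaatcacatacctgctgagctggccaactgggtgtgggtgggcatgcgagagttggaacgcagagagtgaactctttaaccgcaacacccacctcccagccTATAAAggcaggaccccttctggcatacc
TATAAA began 30 bases before the start of Krt25, 26 bases before that of Krt10 and 29 bases before that of Krt12. On the strand of the gene and within the last 50 bases, 863 of 32851 promoters (2.63%) and 9 of the 19 other type I keratin promoters in the table had it. Searched on both strands over 250 bases, TATAAA was in 12.4% of promoters. The shared run of 8 bases began 215, 216 and 218 bases before the starts of Krt25, Krt10 and Krt12. It was chosen for being common to them, and on the strand of the gene it was in 669 promoters (2.04%), among them those of Krt27 and Krt34 of the other type I keratins, and on either strand in 4.19%. These are matches of letters and not sites shown to be used.

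Values are normalized counts, fragment counts per gene that the authors scaled for the size of each library, with no correction for the length of the gene. Between 32909383 and 47485535 fragments were assigned per sample, and 1 fragment was worth 0.841 to 1.30 normalized counts. A group in which every sample had at most 3 fragments of a gene was taken as at the detection floor, and this floor covers counting error only. Labelled regions could be checked against 10 marker genes each. In every Ce sample the median striatal marker stood at 0.492% to 1.97% of its St mean in the same line, and in every St sample the median cerebellar marker stood at 0.705% to 1.89% of its Ce mean. These are bulk tissues, in which fewer cells of a type and less RNA per cell cannot be told apart. Because the 4 genes were chosen with these values known, their levels and differences are given as a description with no test.

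Per kilobase of exon, the levels of the 4 genes spread widely. Krt222 had the highest mean in every group, 811 (CeCo) and 817 (CeHi) normalized counts per kb in the Ce, and 470 (StCo) and 417 (StHi) in the St. Krt10 followed with 158 in CeCo and 154 in CeHi, and with 265 in StCo and 291 in StHi. Krt12 reached 161 normalized counts per kb in StHi but 18.6 in StCo, 3.65 in CeHi and 0 in CeCo. Krt25 reached 109 in CeCo, with 27.6 in CeHi, 26.0 in StHi and 3.14 in StCo. Krt222 and Krt10 thus stood apart mainly by region, and Krt25 and Krt12 by line as well.

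**Figure D1:**
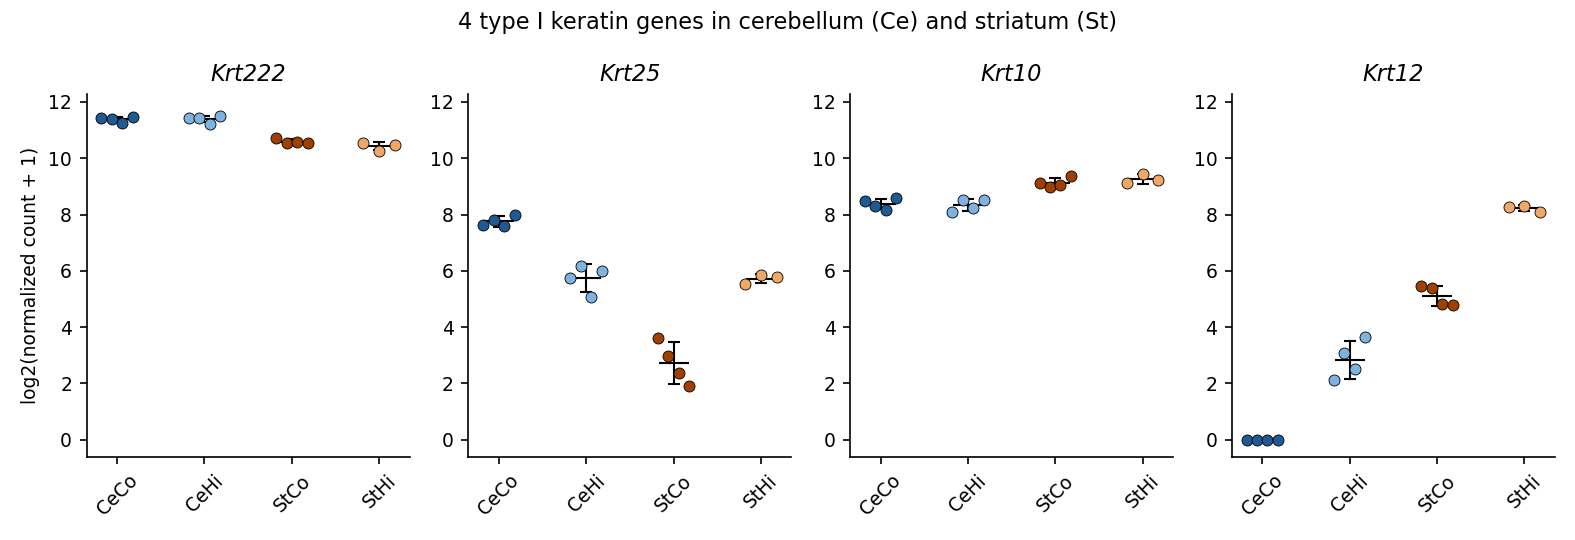
Normalized counts of Krt222, Krt25, Krt10 and Krt12, as log2(normalized count + 1), in each sample (points) of the CeCo, CeHi, StCo and StHi groups, with the mean and SD of these log2 values (black bars). Krt25 is higher in Co in the Ce and higher in Hi in the St, Krt12 is at 0 in all 4 CeCo samples and highest in StHi, and Krt222 and Krt10 are separated by region.

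Krt25 encodes a keratin of the inner root sheath of the hair follicle. Its normalized counts in the Ce were 197, 225, 190 and 252 in Co (mean 216 ± 28.3, SD, n = 4) and 53.0, 70.7, 32.4 and 63.4 in Hi (mean 54.9 ± 16.6, n = 4). All CeCo samples were above all CeHi samples, by 3.94-fold in the means. In the St the values were 11.1, 6.92, 4.20 and 2.74 in Co (mean 6.24 ± 3.68, n = 4) and 45.4, 56.3 and 53.4 in Hi (mean 51.7 ± 5.66, n = 3). Here all StHi samples were above all StCo samples, by 8.28-fold in the means. The StCo samples held only 3 to 9 fragments each, so their values rest on few counts. On the log2 scale Co minus Hi was 2.0 (SE 0.30) in cerebellum and -3.00 (SE 0.33) in striatum. These are 5.0 (SE 0.45) apart, which is the interaction. The signs hold only if the line names of the labels do, whereas the opposition between the regions does not depend on which line is which.

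Set by region, Krt25 was 34.6-fold higher in CeCo than in StCo, a log2 difference of Ce minus St of 5.05 (SE 0.30). In Hi mice the same difference was 0.05 (SE 0.33) and the samples of both regions overlapped. The order of the means was CeCo, CeHi, StHi and StCo, and of the neighbours in this order only CeHi and StHi overlapped. In the St samples of the Hi line Krt25 stood at 82.7% to 103% of the CeHi mean, against medians of 1.17% to 1.89% for cerebellar markers in the same samples. In the StCo samples it stood at 1.27% to 5.15% of the CeCo mean, with medians of cerebellar markers at 0.705% to 0.949%. The highest single cerebellar marker stood at 25.8% to 29.0% in the StHi samples and at 17.6% to 26.5% in the StCo samples. Of the 50-base windows of Krt25 transcripts, 10.9% also occur in Krt15, Krt27 or Krt28, and the gene overlaps Gm32502, which is not in the table, so a share of its reads could be counted elsewhere or come from elsewhere.

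Krt12 encodes a keratin known from the corneal epithelium. No fragment was counted in any of the 4 CeCo samples, whereas the CeHi samples held 3.36, 7.38, 4.63 and 11.6 normalized counts (mean 6.75 ± 3.66, n = 4), or 4 to 11 fragments each. Against the floor of 3 fragments per library the CeHi mean was at least 2.52-fold higher. In the St, Krt12 stood at 43.2, 40.6, 27.3 and 26.5 in Co (mean 34.4 ± 8.72, n = 4) and at 310.0, 313 and 274 in Hi (mean 299 ± 21.4, n = 3). No value of one group reached the other, and the StHi mean was 8.69-fold higher. The log2 difference of Co minus Hi in the St was -3.11 (SE 0.34). In the Ce the fitted value was -2.85 (SE 0.32) and the interaction 0.27 (SE 0.46), but with CeCo at 0 both depend on the constant added before the logarithm, and the interaction was negative with a constant of 0.1.

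Between regions, Krt12 was at least 12.9-fold higher in StCo than in CeCo, and 44.3-fold higher in StHi than in CeHi. The 4 groups did not overlap in the order StHi, StCo, CeHi and CeCo. The CeHi values amounted to 1.13%, 2.47%, 1.55% and 3.89% of the StHi mean in replicates 0 to 3, while the median striatal marker in the same samples stood at 0.594%, 0.561%, 0.492% and 1.97%. Replicate 3 was the highest of the 4 in both. Single striatal markers spanned 0.194% to 9.79%, 0.162% to 10.4%, 0% to 9.95% and 0.350% to 9.55% in replicates 0 to 3, a range that takes in Krt12. In the CeCo samples the median striatal marker stood at 0.557% to 0.702% of its StCo mean, and that share of the StCo mean of Krt12 is less than the worth of 1 fragment. The part of striatal tissue in the CeHi values of Krt12 was not tested.

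**Figure D2:**
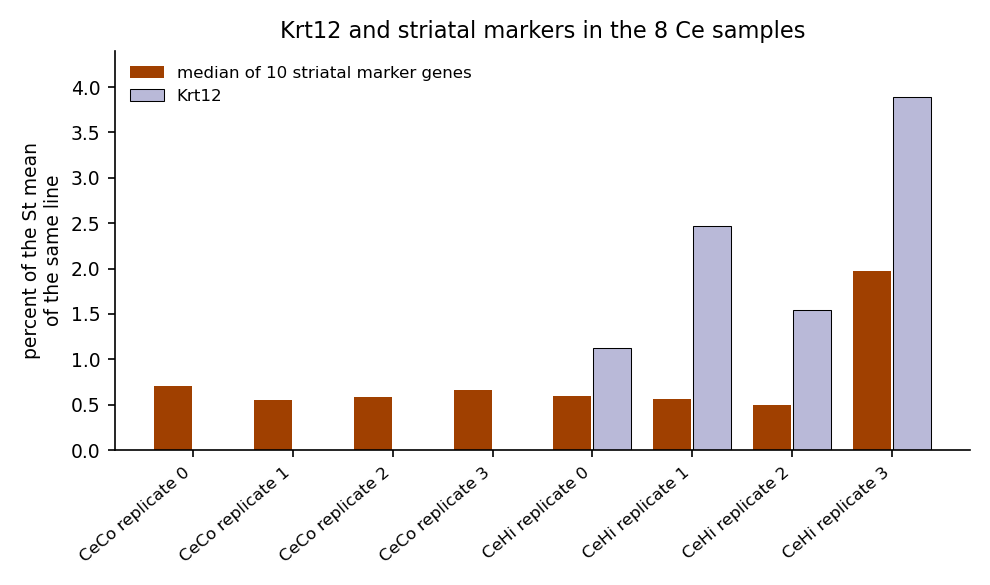
Krt12 (light bars) and the median of 10 striatal marker genes (dark bars) in the 8 Ce samples, each as a percent of the mean of the St samples of the same line. Krt12 is at 0 in the 4 CeCo samples and lies above the marker median in the 4 CeHi samples, with replicate 3 highest in both at 3.89% and 1.97%. Single markers, not drawn, reached 9.55% to 10.4% in the CeHi samples, so Krt12 lies within their range.

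Reads counted for Krt12 cannot all be assigned to it. The gene overlaps A830036E02Rik on the opposite strand, 42.0% of the 50-base windows of its transcripts occur in that gene as well, and A830036E02Rik is not in the table. The library protocol gives no strand, so reads of these genes cannot be told apart. Other genes known from cornea and skin showed no single pattern. Krt5, a keratin of basal epithelial layers, had at most 1.19 normalized counts in any sample and Flg was at 0 throughout. Aldh3a1, an aldehyde dehydrogenase abundant in cornea, had 59.7 normalized counts in StCo and 8.89 in StHi. The other cornea genes read, Tkt, Pax6 and Clu, are also brain genes and were abundant, with 4712 (StCo) and 4757 (StHi) for Tkt, 380 (StCo) and 369 (StHi) for Pax6 and 32770 (StCo) and 32580 (StHi) for Clu. Among the skin genes, Trp63 had 56.9 (CeCo), 76.5 (CeHi), 22.4 (StCo) and 42.1 (StHi), and Perp had 291 (CeCo), 351 (CeHi), 152 (StCo) and 178 (StHi). Sfn and Krt15 of the same list had lower means in Hi in both regions. Sfn had 81.4 (CeCo), 47.9 (CeHi), 35.45 (StCo) and 29.5 (StHi), and Krt15 had 32.0 (CeCo), 30.9 (CeHi), 13.15 (StCo) and 8.46 (StHi). Lor, the loricrin of the cornified envelope, had higher values in the St of both lines, with 8.89 (CeCo) and 16.1 (CeHi) against 171 (StCo) and 190 (StHi). The sum over 12 skin and hair genes lay between 429 and 637 in CeCo and between 568 and 645 in CeHi, and in the striatum between 456 and 688 (Co) and between 584 and 626 (Hi), with Flg at 0 and Dsg3, Krt5 and Krt14 at or near 0. The sum of 4 blood genes was higher in Hi in the striatum without overlap, at 724 to 1176 (Co) against 1364 to 1476 (Hi), and in the cerebellum it ran from 1187 to 2857 (Co) and from 1827 to 4820 (Hi). Its part in the values of Krt12 and Krt25 was not tested.

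Krt10 encodes a keratin of the upper layers of the epidermis. It had 353, 312, 287 and 380 normalized counts in CeCo (mean 333 ± 41.7, n = 4) and 270, 367, 303 and 361 in CeHi (mean 325 ± 47.0, n = 4). In the St it had 558, 498, 526 and 655 in Co (mean 559 ± 68.7, n = 4) and 553, 701 and 594 in Hi (mean 616 ± 76.7, n = 3). The lines overlapped in both regions, with log2 differences of Co minus Hi of 0.03 (SE 0.12) in the Ce and -0.14 (SE 0.13) in the St and an interaction of 0.17 (SE 0.18). The regions did not overlap in either line, and St was 1.68-fold higher in Co and 1.89-fold higher in Hi. Krt10 overlaps the antisense gene Gm11940, which is not in the table, but the overlap takes in 2.37% of its windows.

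Krt222 encodes a keratin-like protein. The gene overlaps Gm32385, which is not in the table, and 0.122% of its windows occur in other genes. Its values in the Ce were 2764, 2694, 2417 and 2806 in Co (mean 2670 ± 175, n = 4) and 2762, 2754, 2376 and 2862 in Hi (mean 2689 ± 214, n = 4). In the St they were 1676, 1494, 1532 and 1485 in Co (mean 1547 ± 88.6, n = 4) and 1479, 1223 and 1421 in Hi (mean 1374 ± 134, n = 3). The Ce samples of the lines overlapped, with a log2 difference of -0.01 (SE 0.07). The lowest StCo value, 1485, was just above the highest StHi value, 1479, and the log2 difference was 0.17 (SE 0.08). The interaction was -0.19 (SE 0.11). Ce was 1.73-fold higher than St in Co and 1.96-fold higher in Hi, with no overlap.

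Counted over the group, the lines did not overlap for 2 of the 4 genes in the Ce, where this held for 13.3% of the 15213 genes tested, and for 3 of the 4 in the St, where it held for 13.1%. The regions did not overlap for 4 of 4 genes in Co (69.9% of all genes tested) and for 3 of 4 in Hi (68.3%). The genes were chosen on these contrasts, so nothing is read from the counts. Krt222 and Krt25 were higher in the Ce and Krt10 and Krt12 in the St of the Co line. Over the 15 samples, which share region and line, Pearson's r of the log2 values was 0.83 for Krt10 with Krt12 and 0.65 for Krt222 with Krt25. It was -0.90 for Krt10 with Krt222 and -0.86 for Krt12 with Krt222. For Krt25 it was -0.59 with Krt10 and -0.55 with Krt12.

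To see whether the differences extended to the surrounding segment, the 104 other genes within 1 Mb of the group were examined. Of these, 41 were at 0 in all samples and 29 had enough counts to be tested. With limma and adjustment over all genes tested, 4 of the 29 differed between lines in the Ce, where 5.82% of all genes did, and all 4 were higher in Co. Rapgefl1, a gene related to exchange factors of the Rap GTPase, had 3898 ± 148 normalized counts in CeCo and 2053 ± 99.2 in CeHi (log2 difference 0.92, SE 0.06, adjusted p = 3.91e-08). Rara, a retinoic acid receptor, had 806 ± 161 in CeCo and 511 ± 54.8 in CeHi (log2 difference 0.64, SE 0.14, limma adjusted p = 0.00987). Jup, which encodes the desmosomal protein plakoglobin, differed by 0.31 (SE 0.07, limma adjusted p = 0.0127), and Casc3, which encodes an exon junction protein, by 0.19 (SE 0.05, limma adjusted p = 0.0371). Without CeCo replicate 0, Jup and Casc3 were not called and 2 genes remained, Rapgefl1 and Rara. Casc3 was also lost without CeCo replicate 1 or 3, any of the CeHi replicates or StCo replicate 1, and with plain moderation.

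In the St, 1 of the 29 differed between lines, where 2.67% of all genes did. It was Rapgefl1 again, at 6750 ± 646 in StCo and 4286 ± 197 in StHi (log2 difference 0.65, SE 0.07, limma adjusted p = 1.06e-05). Rapgefl1 was therefore higher in Co in both regions, and its centre lies 577 kb from the start of Krt12. None of the 29 was called for the interaction, for which 0.552% of all genes were called. At an unadjusted p under 0.05 there were 6, edgeR called 0 and DESeq2 called 1, Jup. In all, DESeq2 called 277 genes, and the share of all genes under the unadjusted cut was not counted. The median log2 line difference of the 29 was 0.02 (Ce) and 0.01 (St). Smarce1, a chromatin remodelling subunit beside Krt222, had 2876 normalized counts in CeCo and 2993 in CeHi and was not called in either region (limma adjusted p = 0.585 and 0.901).

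**Figure D3:**
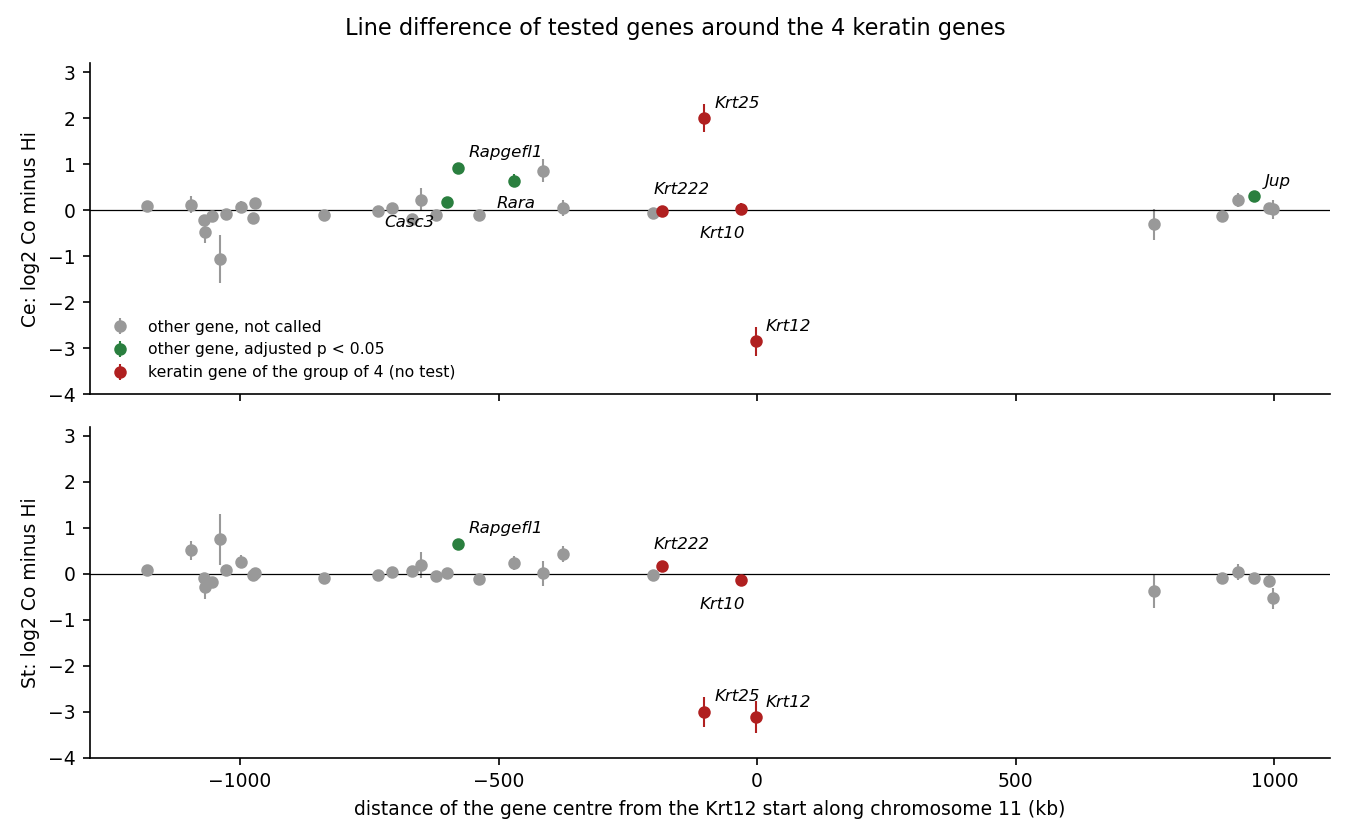
Log2 line difference, Co minus Hi, with its standard error in the Ce (top) and St (bottom) for the 4 keratin genes (red) and the 29 other tested genes within 1 Mb, against distance along chromosome 11 from the start of Krt12 in kb, with genes called by limma in green. Krt25 is at 2.0 in the top panel and -3.00 in the bottom panel, Krt12 is at -2.85 and -3.11, while the called neighbours lie between 0.19 and 0.92.

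None of the 4 genes between the members had enough counts for the test. Krt26, Krt27 and Krt28 are, like Krt25, known from the hair follicle. Krt26 had 28.6 ± 6.55 normalized counts in CeCo and 12.1 ± 4.94 in CeHi with no overlap, the direction of Krt25 in the Ce. In the St it had 16.0 ± 3.11 in StCo and 11.1 ± 3.05 in StHi with overlap, means in the order opposite to that of Krt25. Krt28 had 13.6 ± 2.76 in CeCo and 24.6 ± 10.1 in CeHi and overlapped, and Krt27 stayed at or below 2.59 in every sample. Krt24 had at most 1 fragment in any St sample, and in the Ce it stood at 18.9 ± 4.90 in CeCo and 24.5 ± 7.68 in CeHi. On the other side of Krt12, Krt20, a keratin of the gut epithelium, was at 0 in CeCo and 0.210 in CeHi, and at 6.38 ± 7.12 in StCo and 27.2 ± 4.19 in StHi without overlap, the direction of Krt12. When the filter on low values was dropped and 21831 genes were tested, Krt26 was called in the Ce (log2 difference 1.22, SE 0.28, limma adjusted p = 0.0182) and Krt20 in the St (-2.72, SE 0.68, limma adjusted p = 0.0473), and both hold few fragments.

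Most keratin genes were nearly silent in these tissues. Of the other 47, 12 were at 0 in all samples, 15 had at most 3 fragments in every sample, 14 had more but too few for the test, and 6 were tested. All 54 genes for keratin-associated proteins, which cross-link hair keratins, had at most 3 fragments in every sample. Of the 6 tested keratins none was called for the line in either region or for the interaction by limma, edgeR or DESeq2. At an unadjusted p under 0.05 there were 1, 0 and 0, a cut whose share over all genes was not counted. In the Co line all 6 differed between regions (74.8% of all genes did), and in the Hi line 4 of 6 (70.8%).

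Krt9, a keratin of palm and sole skin, had 405 ± 98.6 normalized counts in StCo and 532 ± 161 in StHi but 1.57 in CeCo and 2.34 in CeHi. Its log2 difference of Ce minus St was -7.32 in Co (SE 0.34, limma adjusted p = 3.34e-12) and -7.39 in Hi (SE 0.37, limma adjusted p = 1.19e-11). Krt77, a type II keratin, showed the same direction, with 185 ± 27.5 in StCo, 139 ± 29.8 in StHi, 1.11 in CeCo and 1.80 in CeHi. Neither was called between lines in the St (limma adjusted p = 0.757 for Krt9 and 0.828 for Krt77). Krt1, the type II partner of Krt10 in the epidermis, was higher in the St, as Krt10 was, with 58.5 ± 9.85 in CeCo and 125 ± 25.9 in StCo (log2 difference -1.06, SE 0.19, limma adjusted p = 7.96e-05) and with 79.2 ± 20.4 in CeHi and 138 ± 8.70 in StHi (-0.80, SE 0.21, limma adjusted p = 0.00212). Krt80 was higher in the St at 43.1 ± 19.1 in StCo against 14.7 ± 4.34 in CeCo (limma adjusted p = 0.0368), a call lost without any of CeCo replicates 0, 1 and 2 or StCo replicates 0 and 3, and under quantile normalization.

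Krt8 and Krt18, the keratin pair of simple epithelia, were higher in the Ce of the Co line, by 3.45 (SE 0.87, limma adjusted p = 0.00234) and 2.62 (SE 0.70, limma adjusted p = 0.00335) on the log2 scale, and in the Hi line were not called (limma adjusted p = 0.183 and 0.202). The interaction was not called for either (limma adjusted p = 0.709 and 0.741). Their spread was wide, from 7.13 to 91.3 normalized counts in CeCo for Krt8 and from 14.3 to 87.9 for Krt18. Markers of the choroid plexus, an epithelium that expresses this pair, varied in the same samples. The sum of the 12 choroid plexus genes, among them Krt8 and Krt18, ran from 1916 to 118900 in CeCo, from 1582 to 115200 in CeHi, from 1435 to 2028 in StCo and from 1934 to 18800 in StHi. Its part in the values of Krt8 and Krt18 was not tested. Krt25 ran from 190 to 252 normalized counts in CeCo and from 32.4 to 70.7 in CeHi. The part of choroid plexus in its values was not tested either.

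**Figure D4:**
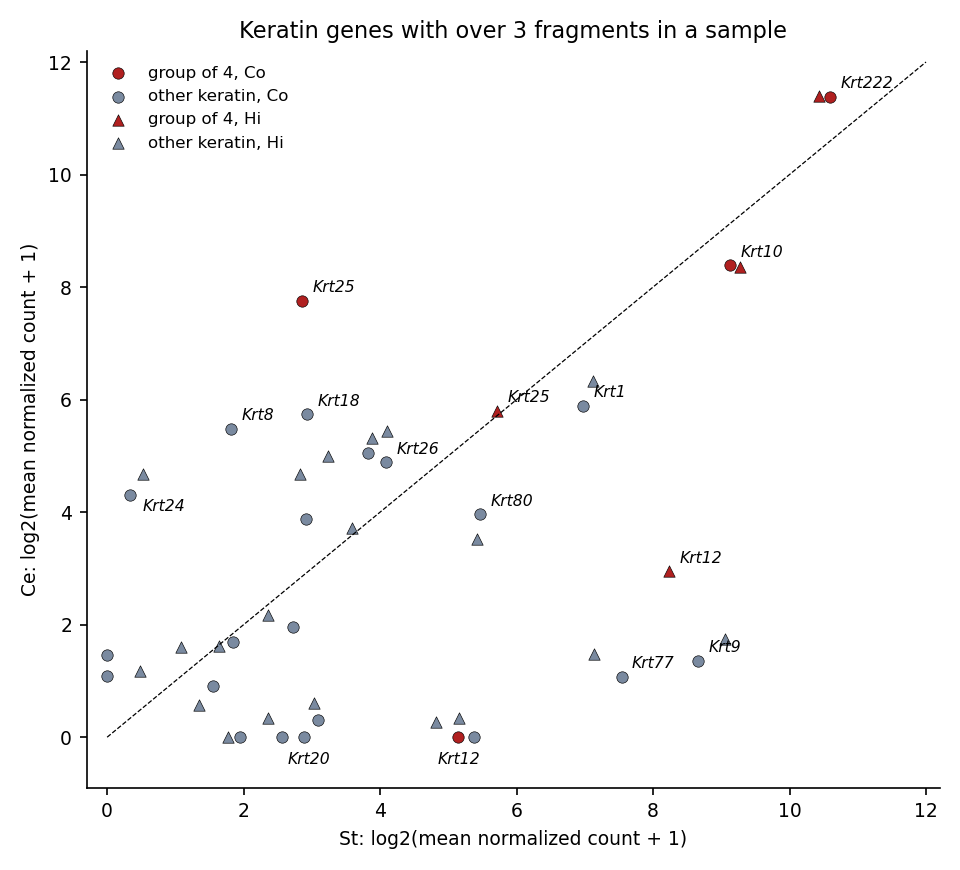
Mean normalized counts, as log2(mean + 1), in the Ce (vertical) against the St (horizontal) for keratin genes with more than 3 fragments in a sample, in Co (circles) and Hi (triangles), with the 4 members in red and a dashed line where both regions are equal. Krt25 lies far above the line in Co and on it in Hi, while Krt12, Krt9 and Krt77 lie far below it. Krt12 is at 0 in the Ce in Co and above 0 in Hi.

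Partners of keratins were read from lists of textbook genes. Of 16 other intermediate filament genes 13 were tested. None was called by limma for the line in the Ce, in the St or for the interaction. Over all genes tested limma called 5.82%, 2.67% and 0.552%. At an unadjusted p under 0.05 there were 5, 3 and 0, edgeR called none, and DESeq2 called 3, 0 and 0. In all, DESeq2 called 1389, 709 and 277 genes. The share of all genes under the unadjusted cut was not counted, so nothing is read from those counts. The neurofilament genes Nefl (8817 normalized counts in CeCo and 10500 in CeHi), Nefm (7309 and 7866), Nefh (4820 and 6906) and Ina (6828 and 6943) had the highest means of the list over the 4 groups on this scale, which is not corrected for length. The median log2 line difference over the 13 was -0.03 in both regions.

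Of 14 genes that anchor keratins 12 were tested. In the Ce 1 of the 12, Jup, was called, as given above, where 5.82% of all genes were. In the St 2 of the 12 were called, where 2.67% of all genes were. In the St, Pkp1, a plakophilin of desmosomes, was called higher in Co, with 49.5 ± 13.6 normalized counts in StCo and 9.50 ± 2.28 in StHi (log2 difference 2.25, SE 0.47, limma adjusted p = 0.0125), and Evpl, which encodes envoplakin, was called higher in Hi, with 124 ± 28.1 and 205 ± 20.7 (-0.75, SE 0.19, limma adjusted p = 0.0391). The Pkp1 call was lost without StHi replicate 2 and with a constant of 0.1. That of Evpl was lost without CeCo replicate 3, CeHi replicate 2, StCo replicate 1 or 3, or any of the StHi replicates. It was also lost with each region fitted alone and with the replicate number as a block over all groups. Dst, Pkp4 and Plec, which with Jup had the highest normalized counts of this list, were not called for the line in either region. None of the 12 was called for the interaction by limma, with 3 at an unadjusted p under 0.05, 0 called by edgeR and 2 by DESeq2. Over all genes limma called 0.552% for the interaction and DESeq2 called 277 genes, while the share under the unadjusted cut was not counted. The median log2 line difference of these genes was 0.25 (Ce) and -0.08 (St), beside -0.01 in the Ce over all genes tested.

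For each member the 3 tested genes with the most similar profile over the 15 samples were found by Pearson's r of the log2 values, as a description, since the samples share region and line. For Krt25 these were Ccdc76 (r = 0.93), Unc13c (0.89), which acts in synaptic vesicle priming, and Pik3c2a (0.88), a lipid kinase. Ccdc76 had 295 normalized counts in CeCo, then 276 (CeHi), 242 (StHi) and 187 (StCo), the order of Krt25 with smaller steps. For Krt12 they were Gstm6 (0.98), a glutathione transferase, E130311K13Rik (0.97) and H2afj (0.97), a histone H2A variant. Gstm6 had 261 ± 26.3 normalized counts in StHi, then 87.3 ± 17.4 (StCo), 44.8 ± 8.96 (CeHi) and 14.7 ± 4.14 (CeCo), again the order of Krt12. For Krt10 they were Shank3 (0.97), a postsynaptic scaffold, Fem1a (0.97) and Slc39a3 (0.97), a zinc transporter. For Krt222 they were Ndrg3 (0.99), Bend6 (0.99) and Extl2 (0.99). None of these 12 genes lies on chromosome 11.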

How the data were processed

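The authors aligned paired-end reads to the mouse genome (build GRCm38) with TopHat2 and normalized gene values with Cuffnorm 2.2.1, per the labels and the study's methods. The table is named for FPKM, but the deposited values are a signal of normalized counts: fragment counts scaled for library size, with no correction for gene length. This was checked on low values, 99.6% to 99.8% of which were whole multiples (within 0.1) of a step per sample. Strandedness is not given in the sources used here. Nothing in the labels ties a Ce to a St sample of 1 mouse.

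Genes with a CPM of at least 1 in 3 samples (15213) were scaled by trimmed mean of M-values (factors 0.947 to 1.06), transformed to log2(value + 1) and fitted as 4 group means with limma 3.58.1 in R 4.3.3, with trended and robust moderation and Benjamini-Hochberg adjustment over all genes tested, called at an adjusted p under 0.05. On this scale the changes of low genes are understated. The fit was tested on simulated data. edgeR 4.0.16 and DESeq2 1.42.0 were run on recovered fragments as alternatives. Standard errors and p-values measure the spread between samples.

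The 4 genes, the lists and the tests were chosen with earlier results of these data known. Genes named are the 4 members, the other tested keratins, genes within 1 Mb that were called for the line or the interaction or lie beside a member, the 3 most alike genes of each member, and list genes that were called or are among the 4 with the highest normalized counts. Aldh3a1, Lor, Flg, Krt20, Krt5 and other markers are given as values, with no test. Exon lengths, overlaps and positions come from GENCODE M21 and RefSeq, in which 24576 of the 26628 symbols were found.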

Additional observations from a re-analysis of the deposited data

Results flagged for a closer look

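The line difference of Krt25 took opposite directions in the regions. All CeCo samples were above all CeHi samples and all StCo samples were below all StHi samples, and the log2 differences of Co minus Hi were 5.0 apart. Which line was the higher in each region rests on the line names of the labels. This difference was not tested, because the gene was chosen for it. Dixon's criterion, by which chance gives about 1 in 20, was applied to 42 groups of 4 samples for 14 genes named in the report. No sample lay far from the others of its group. Krt12 in CeCo, at 0 in every sample, could not meet the criterion, and the StHi groups were not examined.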

How the results depend on the processing

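The differences of the 4 keratin genes were refitted under 14 alternatives and without each of the 15 samples in turn. Signs changed for the interaction of Krt12, and for the line differences of Krt10 and Krt222 in the Ce and the region difference of Krt25 in Hi, which lay within their SE of 0. Krt12 was the most dependent on the processing, since it is at 0 in CeCo. Its log2 line difference in the Ce was -5.96 with a pseudocount of 0.1, -0.72 with 10, -5.75 with edgeR and -5.31 with DESeq2. Its region difference in Co was -8.39, -2.12, -8.12 and -7.71, and its interaction -2.81, 2.09, -2.63 and -2.19, in the same order. The interaction of Krt12 therefore has no stable sign. With a pseudocount of 10 its region difference in Hi was -4.22, and Krt25 had a line difference in the St of -1.95, an interaction of 3.77 and a region difference in Co of 3.83. Krt12 did not pass a filter of 1 CPM in 7 samples.

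Without the filter on low values 21831 genes were tested. Of these, 877 were called in the Ce, 482 in the St, 13105 for the region in Co and 12196 in Hi. Among the other 47 keratins, 12 of them at 0 in all samples, the calls were 1 in the Ce (Krt26), 1 in the St (Krt20), 18 for the region in Co and 14 in Hi. In the St 2 neighbours were called. With 1 CPM in 7 samples, 3 other keratins were called for the region in Co, among 11040 genes called in all. Sample quality weights gave 764 genes called for the line in the St, 176 for the interaction, and among the neighbours 2 in the St (Neurod2 and Rapgefl1) and 1 for the interaction (Jup). DESeq2 called 1389 genes in the Ce, 709 in the St and 277 for the interaction, among them 1 neighbour, against 886, 406 and 84 reported.

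Leaving out 1 sample at a time gave 616 to 948 genes called in the Ce, 269 to 460 in the St and 42 to 117 for the interaction, 10993 to 11503 for the region in Co and 10111 to 10798 in Hi. The lowest were without CeCo replicate 0, StHi replicate 1 and StCo replicate 1 for the first 3. Neighbours called were 2 to 4 in the Ce and 1 to 2 in the St. Krt25 ranged from 1.77 to 2.14 for the line in the Ce, -3.29 to -2.72 in the St and 4.73 to 5.29 for the interaction.

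The numbers were not taken as pairs, because nothing in the labels ties them. Residuals of Ce and St samples of the same number correlated at 0.171 to 0.278 in Co (4 pairs) and -0.0751 to 0.0514 in Hi (3 pairs). Samples of different numbers were not compared in this way, so these values do not settle whether same-numbered samples share a mouse. With the number as a replicate block over all groups, Krt25 had log2 differences of 2.0 in the Ce, -2.96 in the St and 4.96 for the interaction, and 922, 398 and 73 genes were called. With a block within line, 55 genes were called for the interaction, and 6 of 6 other keratins for the region in Hi against 4 reported, Krt8 and Krt18 being the added ones. Evpl was not called in the St with the block over all groups. Depth limits Krt12 in the Ce and Krt25 in StCo, where samples held at most 11 and 9 fragments, and 3 StHi samples limit the St contrasts.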
